A study of Mus musculus with 16 samples.

Results

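The cytosolic ribosomal protein genes were examined in splenic dendritic cells (DCs) of mice with and without Trim33, which encodes a transcription cofactor and E3 ubiquitin ligase. Members were chosen by gene symbol. A gene counted when its symbol was Rpl or Rps followed by a number, or was Rpsa, Rplp0, Rplp1 or Rplp2, and pseudogenes and the ribosomal S6 kinases were left out. This gave 89 members among the 18232 genes listed for either pDCs or cDCs, with all 89 in the pDC table and 88 in the cDC table (Rps23rg1 was listed for pDCs only). By role, 43 were proteins of the large (60S) subunit, 31 were proteins of the small (40S) subunit and 3 made up the stalk. Another 10 were paralog-like genes such as Rpl7l1, Rpl22l1 and the retrogenes Rps27rt and Rpl37rt, and 2 (Rps19bp1 and Rps23rg1) matched by name only.

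RNA sequencing was done on 16 libraries of sorted splenic cells from C57BL/6 mice aged 6 to 8 weeks. The WT mice were Trim33 fl/fl, so that they carried the floxed alleles without Cre, and the cKO mice were Trim33 fl/fl Itgax-Cre, in which Cre is driven by Itgax, the gene for CD11c. Plasmacytoid DCs (pDCs, CD11c+ SiglecH+) gave 3 WT and 3 cKO libraries, cDC1s (SiglecH- MHC II+ CD24+ CD172a-) gave 2 and 2, and cDC2s (SiglecH- MHC II+ CD24- CD172a+) gave 3 and 3. Each library pooled several mice, more of them for cKO than for WT, and the CD11c gate selects on the protein whose gene drives the Cre.

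Each ribosome joins a small subunit, which reads the mRNA, to a large subunit, which forms the peptide bond, and each subunit holds 1 copy of most of its proteins. Ribosomal protein mRNAs belong to the TOP class, whose transcripts start with a C followed by a run of pyrimidines, and their translation is controlled by mTORC1 through LARP1. New subunits are assembled in the nucleolus by a separate set of biogenesis factors, many of which are transcribed under MYC. Professional antigen-presenting cells change their protein synthesis as they mature.

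The targeted gene was lower in every cKO library. Trim33 was at 20.6, 23.83 and 22.33 TPM (transcript abundance scaled to the same total in every library) in WT pDCs against 12.61, 16.49 and 11.73 TPM in cKO pDCs, at 15.47 and 18.18 against 7.88 and 7.71 TPM in cDC1s, and at 17.21 to 20.64 against 7.13 to 8.07 TPM in cDC2s. The groups did not overlap in any subset, although Trim33 RNA remained in all cKO libraries. The 10 pDC markers summed to 18949 to 20884 TPM in pDC libraries and to 308 to 599 TPM in cDC libraries. The 10 cDC1 markers summed to 4188 to 4675 TPM in cDC1s and 485 to 649 TPM in cDC2s, and the 10 cDC2 markers to 1689 to 2312 TPM in cDC2s and 55.9 to 80.6 TPM in cDC1s. These sums went with the labels, and the cDC2 markers also reached 2006 to 2308 TPM in pDCs. Erythroid markers varied from 385 TPM in WT cDC1 library 2 to 10744 TPM in WT cDC2 library 2, and their part in the results was not tested. In bulk RNA, fewer cells of a type and less RNA per cell cannot be told apart.

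The start sites of some members are shown first as examples. Each has 20 bases before and 20 bases from the start given by RefSeq (GRCm38.p6), 5′ to 3′ on the transcribed strand. Capitals mark the longest pyrimidine run that begins with C within 10 bases of the start.
Rpl28, chr7:4792945-4792984 (+ strand): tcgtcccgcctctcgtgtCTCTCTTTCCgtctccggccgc
Rpl14, chr9:120571497-120571536 (+ strand): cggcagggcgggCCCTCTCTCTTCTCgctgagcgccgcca
Rps27, chr3:90213629-90213668 (− strand): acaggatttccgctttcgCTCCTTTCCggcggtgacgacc
Rps27rt, chr9:114982720-114982759 (− strand): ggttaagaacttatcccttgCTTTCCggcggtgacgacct
Rplp2, chr7:141447631-141447670 (+ strand): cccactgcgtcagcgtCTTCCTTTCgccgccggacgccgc
Rps2, chr17:24720043-24720082 (+ strand): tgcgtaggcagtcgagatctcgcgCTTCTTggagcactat
Rpl7l1, chr17:46782637-46782676 (− strand): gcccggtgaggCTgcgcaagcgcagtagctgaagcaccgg
Rps19bp1, chr15:80264287-80264326 (− strand): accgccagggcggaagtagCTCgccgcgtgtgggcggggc

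The first 6 carry a run of at least 6 pyrimidines within 10 bases of the start, while Rpl7l1 and Rps19bp1, which are not subunit proteins, do not. The start used for Rps2 lies inside the annotated gene, which RefSeq begins further upstream. Start sites were found for 69 of the 89 members. Of the 57 subunit and stalk genes among them, 31 (54.4%) had such a run of 6 or more within 10 bases, against 23.4% of the other genes tested and 21.9% of all genes in the RefSeq table. In the 300 bases from 250 before to 50 after the start, CCGGAAG on either strand was found for 42.1% of these members and 20.4% of other tested genes. GGGCGG was found for 61.4% and 66.7%, CACGTG for 10.5% and 11.6%, AAGATGGC for 8.8% and 5.3%, and TATAAA for 10.5% and 8.9%. These matches describe letters and not binding.

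A second sequence matters for reading the values. Rps27 (chr3:90212667-90213648) and its retrogene Rps27rt (chr9:114982366-114982739) have the same coding sequence of 255 bases, with 0 differences between them in GENCODE M21, so that reads inside it cannot be assigned to one gene by sequence.
Rps27 and Rps27rt, coding sequence: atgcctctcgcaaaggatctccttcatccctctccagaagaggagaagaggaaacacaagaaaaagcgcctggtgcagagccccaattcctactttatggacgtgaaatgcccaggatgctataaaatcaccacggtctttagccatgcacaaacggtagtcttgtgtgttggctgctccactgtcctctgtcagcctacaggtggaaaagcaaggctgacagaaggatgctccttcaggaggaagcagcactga

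The members together took between 13.3% and 20.1% of all transcripts in a library. In WT pDCs the share was 13.7%, 14.0% and 13.5%, and in cKO pDCs it was 13.3%, 14.1% and 14.4%, so these groups overlapped. In WT cDC1s it was 16.9% and 18.7% and in cKO cDC1s 15.6% and 16.4%, and these groups did not overlap. In WT cDC2s it was 18.8%, 19.2% and 16.1% and in cKO cDC2s 16.7%, 20.1% and 17.6%, with overlap.

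As group means, the share was 13.72% ± 0.223 (SD, n = 3) in WT pDCs, 13.95% ± 0.555 (n = 3) in cKO pDCs, 17.82% ± 1.31 (n = 2) in WT cDC1s, 15.97% ± 0.559 (n = 2) in cKO cDC1s, 18.05% ± 1.69 (n = 3) in WT cDC2s and 18.15% ± 1.78 (n = 3) in cKO cDC2s. The gap between the nearest WT and cKO cDC1 libraries was smaller than the gap between the WT cDC1 libraries, and no test was made over the members as a list. The pDC and cDC tables were normalised separately, so the lower share in pDCs is given side by side and was not tested. The 10 most abundant genes that are not members took 15.2% and 14.4% of transcripts in WT cDC1s and 11.2% and 11.5% in cKO cDC1s. With these 10 left out of the total, the members' share was 19.9% and 21.9% in WT cDC1s and 17.5% and 18.5% in cKO cDC1s, still without overlap.

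**Figure D1:**
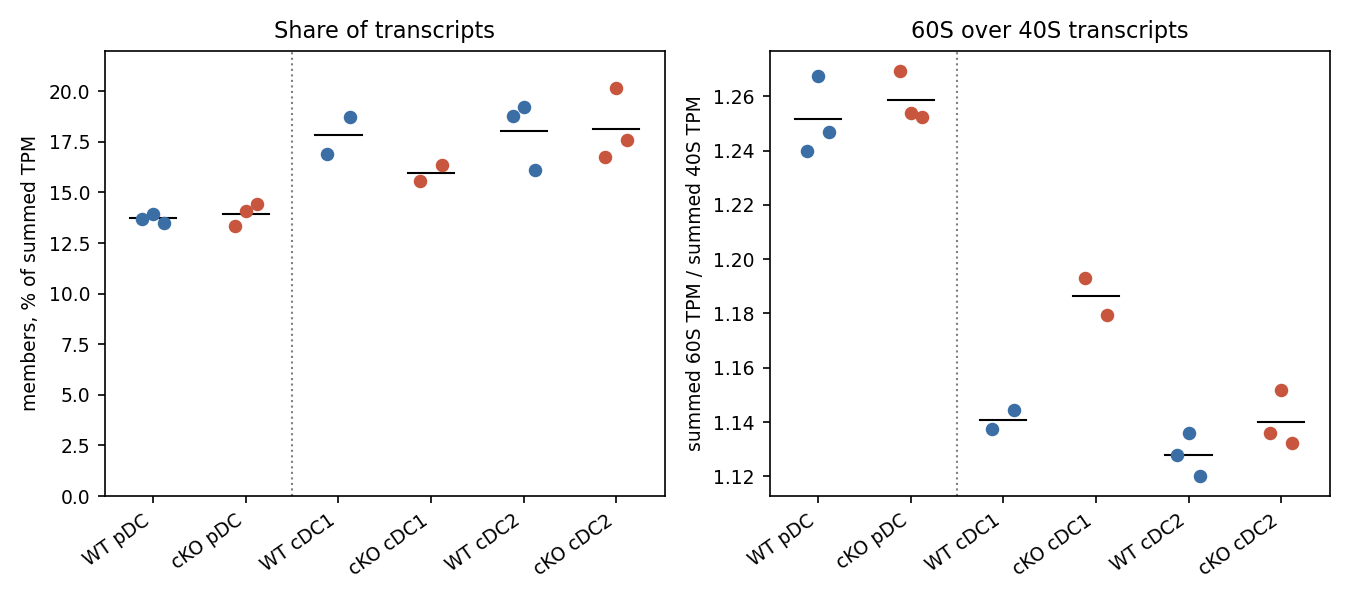
Left, summed TPM of the members as a percent of the library total in each of the 16 libraries (points; WT blue, cKO red; black lines, group means). Right, summed TPM of 60S genes over that of 40S genes; the dotted line separates the pDC and cDC tables, and the cKO cDC1 libraries lie below the WT cDC1 libraries on the left (15.6% and 16.4% against 16.9% and 18.7%) and above them on the right.

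The balance of the subunits was described by the ratio of summed 60S to summed 40S transcripts. In cDC1s it was 1.14 in both WT libraries, below the 1.19 and 1.18 of the cKO pair. In cDC2s it was 1.13, 1.14 and 1.12 in WT and 1.14, 1.15 and 1.13 in cKO, with overlap, and in pDCs it lay between 1.24 and 1.27 in both genotypes. The 40S sum held Rps27 but not Rps27rt, and the 60S sum Rpl37 but not Rpl37rt. These near-identical copies were divided differently in pDCs and cDCs, so the ratios of pDCs and cDCs cannot be compared.

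Nearly all subunit genes were among the most abundant transcripts. Among the 77 subunit and stalk genes, the mean level ranged from 88.3 to 4482 TPM in pDCs (median 1730) and from 63.9 to 4718 TPM in cDCs (median 2264), with 64 and 69 of them at 1000 TPM or more. Members made up 46 of the 100 most abundant genes in pDCs and 56 of the 100 in cDCs. In pDCs the 10 highest included Rpl10 (4482 TPM), Rps9, Rps26, Rps3a1, Rpl23a, Rps27rt, Rplp1, Rpl41 and Rps16 (2682 TPM). In cDCs they included Rplp1 (4718 TPM), Rpl23a, Rps27, Rpl10, Rps26, Rps3a1, Rps9, Rps15 and Rplp0 (3354 TPM). Neighbours in these orders overlapped across libraries, except that every pDC library had Rpl10, a protein that completes the large subunit, at 4356 to 4730 TPM and no other of the 10 above 3533 TPM. The order of the 77 genes was much alike between libraries of a group, with Pearson's r of log2 levels across genes from 0.98 to 0.998. Between groups it was 0.997 for WT and cKO pDCs, 0.983 for cDC1s, 0.991 for cDC2s and 0.94 for WT pDCs and WT cDC1s, all across genes, which are not independent replicates.

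A few members were near the limit of detection. Rps23rg1 was listed at 0 in 5 of 6 pDC libraries and at 0.18 TPM in the other. Rpl10l and Rpl39l, retrogenes best known from the testis, stayed at or under 3.75 and 2.14 TPM in every library. Rpl3l, a striated muscle counterpart of Rpl3, was at 2.27 to 4.48 TPM in pDCs and 0.48 to 1.57 TPM in cDCs, where Rpl3 itself was at 1315 to 2065 TPM over all libraries. Rpl32l was at 3.11 to 5.19 TPM in pDCs and 0.22 to 1.36 TPM in cDCs. After a filter at a mean of 1 TPM, 86 members were tested among 11299 genes in pDCs and 84 among 11411 in cDCs.

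The copies Rps27 and Rps27rt were estimated in different proportions in the 2 tables. Rps27 encodes a zinc-binding protein of the small subunit, and was at 1286 to 1898 TPM in pDCs and 2514 to 6480 TPM in cDCs. Rps27rt was at 2517 to 3494 TPM in pDCs and 177 to 859 TPM in cDCs. Rps27rt thus took 57.0% to 73.1% of the pair in pDC libraries and 5.36% to 12.8% in cDC libraries. The sum of the pair ran from 4415 to 4989 TPM in pDCs and from 2798 to 6847 TPM in cDCs, which overlap. Rps27rt had the widest spread of the members within cDC groups, with an SD of 0.53 on the log2(TPM + 1) scale against a median of 0.15 for members and 0.16 for all genes. In pDCs the median SD was 0.06 for members and 0.12 for all genes, and the widest was that of the scarce Rpl3l (0.30).

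Rpl37 and its retrogene also divided differently. Rpl37 was at 268 to 295 TPM and Rpl37rt at 898 to 1007 TPM in pDCs, while both lay between 479 and 933 TPM in cDCs. Rps6, the subunit protein phosphorylated downstream of mTORC1, was at only 57.5 to 99.0 TPM in every library. In both tables it lay far below its pseudogene Rps6-ps4, which was at 2932 to 4627 TPM and whose sequence covers the whole Rps6 coding region without a mismatch. Rpl31 was at 2329 to 2393 TPM in pDCs and 689 to 989 TPM in cDCs, and its sum with Rpl31-ps12 differed likewise, at 3186 to 3369 TPM in pDCs and 982 to 1474 TPM in cDCs. Of the 87 members with a coding sequence in GENCODE M21, 11 had another listed gene matching at least 95% of bases over at least 80% of it, and the levels of these are uncertain. Set side by side across the separately normalised tables, 41 of 88 members were below every cDC library in every pDC library, and 5 (Rps27rt, Rpl32l, Rpl31, Rpl3l and Rps6) were above. How many of all listed genes separate in this way was not counted, so these numbers cannot be read as a trait of the members.

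**Figure D2:**
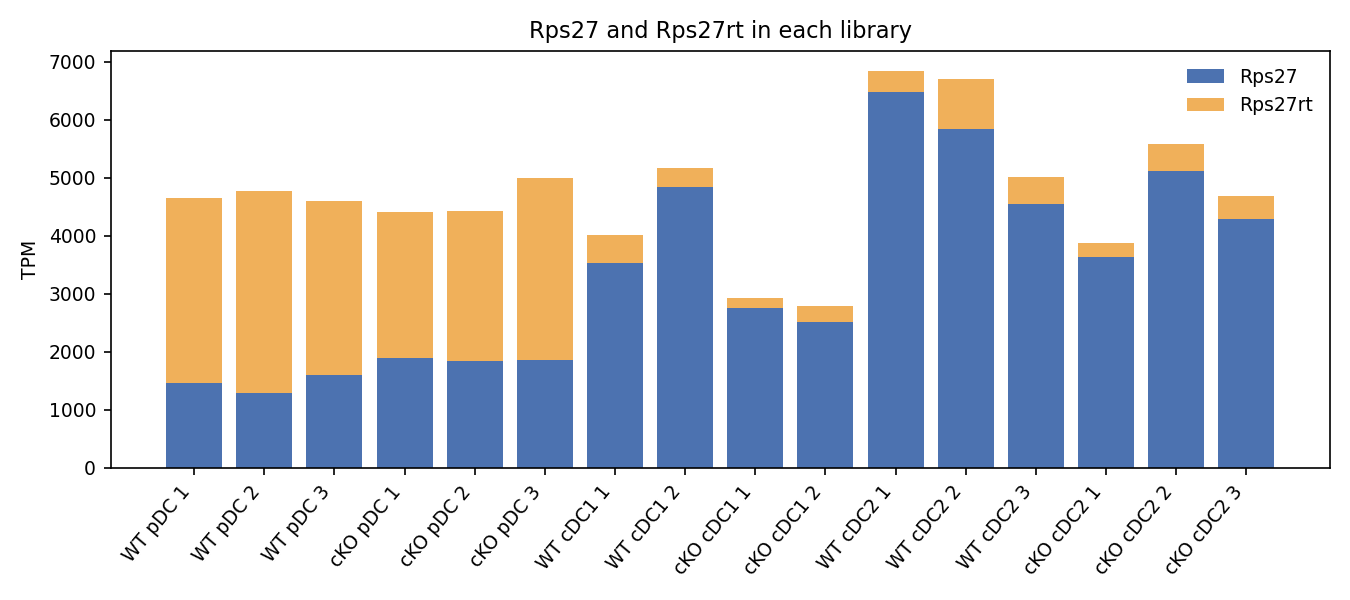
Stacked bars of the TPM of Rps27 (blue) and Rps27rt (orange) in each library. Rps27rt holds 57.0% to 73.1% of the sum in the 6 pDC libraries and 5.36% to 12.8% in the 10 cDC libraries.

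The first comparison asked what loss of Trim33 did to the members in pDCs. Changes are log2 fold changes of TPM + 1, cKO against WT, from limma with Benjamini-Hochberg adjustment over all genes. A gene was called when the adjusted p was at most 0.01 and the change at least 0.5 in size, and a looser rule took an adjusted p of at most 0.05 without a limit on size. By the first rule, 0 of 86 members were called, against 1.05% of all genes. An unadjusted p under 0.05 was reached by 7 of the 86, against 2352 of 11299 genes. By the looser rule 1 member passed, against 4.55% of all genes. With the replicate number as a block, which the pairing of these libraries allows, 2 passed against 12.3% of all genes, namely Rps27 (0.37, adjusted p 0.0151) and Rpl22l1 (-0.30, adjusted p 0.017). The members' changes ran from -0.30 to 0.37 with a median of 0.02, beside -0.05 for all genes, and 50 of 86 were above 0. The 60S genes had a median of 0.04 (33 of 43 above 0), the 40S genes 0.01 and the paralog-like genes -0.09 (8 of 8 below 0). Over all genes 4352 of 11299 were above 0 and 6947 below. Among the 8, Rps27rt and Rpl37rt have near-identical copies, Rps27 and Rpl37, whose changes were 0.37 and 0.10.

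The member that passed the looser rule without the block was Rps27. Its levels were 1457, 1286 and 1595 TPM in WT pDCs and 1898, 1843 and 1863 TPM in cKO pDCs, without overlap (log2 fold change 0.37, SE 0.08, adjusted p 0.0458). Rps27rt was at 3197, 3494 and 3003 TPM in WT and 2517, 2588 and 3126 TPM in cKO pDCs, with overlap (log2 fold change -0.24, adjusted p 0.219). Summed, the pair was at 4654, 4780 and 4598 TPM in WT and 4415, 4431 and 4989 TPM in cKO, and the change in the sum was -0.02 (adjusted p 0.879), so the direction turned once the identical copies were added. Rps27 alone missed the threshold without any one of the 6 pDC libraries (adjusted p up to 0.128). The next members in order of adjusted p were Rpl22l1 (-0.30, adjusted p 0.0807), Rpl24 (0.18, 0.122), Rps26 (0.17, 0.167) and Rps10 (0.16, 0.171), none of which passed without the block. Top2a, a gene of dividing cells, was at 1.74 to 2.37 TPM in WT and 16.1 to 36.8 TPM in cKO pDCs. The 14 monocyte and macrophage markers summed to 5876 to 6508 TPM in WT and 6719 to 7061 TPM in cKO, and the 9 neutrophil markers to 9.07 to 29.7 against 30.3 to 138.5 TPM. The B cell markers listed summed to 65.7 to 94.1 against 93.2 to 171.9 TPM, with overlap. For T cell markers it was 24.61 to 31.05 against 32.79 to 45.16 TPM, and for 6 genes shared by DCs 25609 to 26917 against 18467 to 22958 TPM. Of the genes tested, 12 of 13 monocyte and macrophage, 5 of 5 neutrophil, 6 of 6 B cell, 4 of 4 T cell and 2 of 6 shared DC genes had changes above 0. Their part in these values was not tested.

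The second comparison, in cDC1s, gave the widest range of member changes among the 3 subsets. The changes ran from -0.83 to 0.65 with a median of -0.12, and 66 of 84 members were below 0. Over all genes the median was 0.17, and 4033 of 11411 were below 0. Under median-of-ratios scaling the median of all genes was 0.02 and that of members -0.29, and set against all genes the members lay at -0.29 with TPM, -0.31 with median-of-ratios scaling and -0.13 after quantile normalization. By role, 34 of 43 60S genes, 27 of 31 40S genes and 2 of 3 stalk genes were below 0, with medians of -0.09, -0.15 and -0.17. The median over members stayed below 0 when each library was left out, between -0.21 without WT cDC1 library 1 and -0.04 without WT cDC1 library 2.

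By the first rule 2 members were called higher, against 15.8% of all genes, and 0 were called lower, against 6.56%. Over all genes the split was 1806 higher to 749 lower with TPM and 1067 to 1067 with median-of-ratios scaling. Both called members lie outside the ribosome's own proteins. Rps19bp1 (chr15:80260614-80264306) encodes a nucleolar partner of RPS19 that also binds SIRT1. It was at 25.6 and 24.0 TPM in WT and 39.6 and 39.1 TPM in cKO cDC1s, without overlap (log2 fold change 0.65, SE 0.11, adjusted p 0.00173). Rpl7l1 (chr17:46773907-46782656) encodes a paralog of RPL7 associated with precursors of the large subunit. It was at 60.4 and 58.2 TPM in WT and 85.2 and 86.4 TPM in cKO, without overlap (log2 fold change 0.53, SE 0.10, adjusted p 0.00336). Its call was lost under every other scaling (adjusted p 0.00485 to 0.022, with changes of 0.36 to 0.49) and without any one of the 4 cDC1 libraries (adjusted p 0.0183 to 0.0284), and with the replicate number as a block its adjusted p was 0.0113. The call of Rps19bp1 was lost without WT cDC1 library 2, cKO cDC1 library 1 or cKO cDC1 library 2 (adjusted p 0.0134 to 0.02), and under median-of-ratios scaling (0.48, below the size limit) and quantile normalization (adjusted p 0.0148).

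By the looser rule 4 members were higher, against 28.5% of all genes, and 6 were lower, against 11.1%. The split was 2 higher to 10 lower under median-of-ratios scaling, 5 to 18 with only the 2 groups compared and 5 to 0 without a filter on low values. The share of all genes passing the looser rule under these alternatives is not given here, so these splits cannot be set against it. The higher ones added Rps2 and Rpl8 to the pair above. Rps2 (chr17:24718121-24721927), at the entry of the mRNA channel of the small subunit, was at 2557 and 2504 TPM in WT and 3402 and 3441 TPM in cKO cDC1s (log2 fold change 0.44, SE 0.10, adjusted p 0.00617). Rpl8 (chr15:76904071-76906318), near the peptidyl transferase centre, was at 1938 and 1852 TPM in WT and 2519 and 2438 TPM in cKO (log2 fold change 0.39, SE 0.10, adjusted p 0.0102). For both the WT and cKO libraries did not overlap, and both missed the threshold under median-of-ratios scaling (adjusted p 0.084 for Rps2 and 0.123 for Rpl8). Rps2 passed without each library in turn (adjusted p up to 0.047), and Rpl8 missed without WT cDC1 library 2, cKO cDC1 library 1 or cKO cDC1 library 2 (adjusted p 0.0503 to 0.0828).

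The lower members included Rps27, Rps28, Rps29, Rplp1 and Rpl37rt. Rplp1 encodes an acidic protein of the stalk, which recruits elongation factors, and was at 5556 and 6060 TPM in WT and 4006 and 4044 TPM in cKO cDC1s (log2 fold change -0.53, SE 0.15, adjusted p 0.0215). The other stalk genes did not pass, with Rplp0 at -0.17 (adjusted p 0.169) and Rplp2 at 0.02 (adjusted p 0.894). Rps29, a small zinc-binding protein, was at 3354 and 3897 TPM in WT and 2486 and 2445 TPM in cKO (-0.55, SE 0.16, adjusted p 0.0185). Rps27 was at 3527 and 4839 TPM in WT and 2751 and 2514 TPM in cKO (-0.65, SE 0.21, adjusted p 0.0339), and the sum with Rps27rt kept this direction (-0.67, adjusted p 0.025). The WT and cKO libraries did not overlap for Rplp1, Rps29 or Rps27.

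Rps28, at the mRNA exit of the small subunit, was at 1922 and 2295 TPM in WT and 1573 and 1566 TPM in cKO cDC1s, without overlap (log2 fold change -0.42, adjusted p 0.0446). Rpl37rt was at 880 and 911 TPM in WT and 575 and 741 TPM in cKO (-0.45, adjusted p 0.0488). With 2 libraries a group, each of these 5 genes missed the threshold without cKO cDC1 library 1 (adjusted p 0.0853 to 0.336) and without WT cDC1 library 2 (0.107 to 0.242), all but Rpl37rt without cKO cDC1 library 2 (0.0868 to 0.15), and Rplp1 and Rpl37rt without WT cDC1 library 1 (0.0547 and 0.123). Without a filter on low values all 5 missed the threshold (adjusted p 0.0616 to 0.1), as did Rplp1 after quantile normalization (-0.21, adjusted p 0.151), Rps28 and Rpl37rt with the total of non-members (0.0525 and 0.0529) and with FPKM (0.0585 and 0.0631), and Rps28 with the replicate block (0.0507). The remaining proteins with known roles outside the ribosome did not pass. Rpl5 and Rpl11, which bind MDM2 with 5S rRNA, had log2 fold changes of -0.16 (adjusted p 0.438) and -0.09 (0.717), and Rpl38 had one of -0.12 (0.659).

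**Figure D3:**
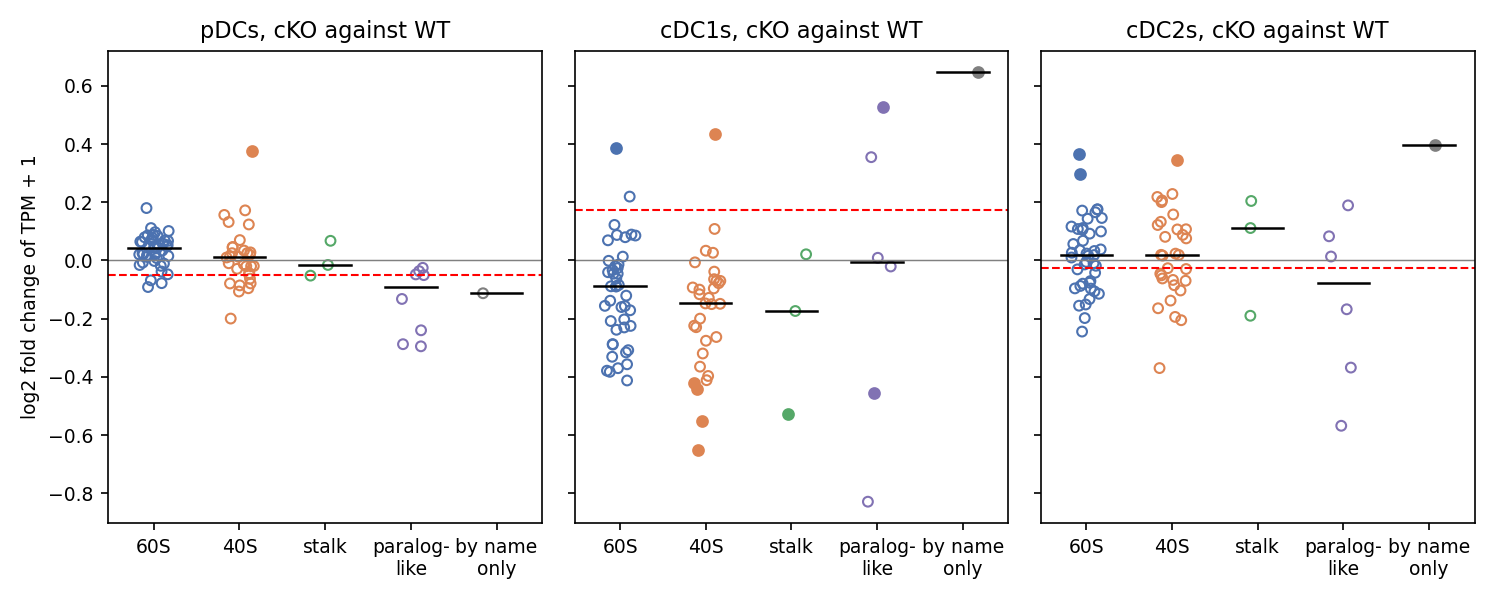
Log2 fold change of TPM + 1, cKO against WT, of each tested member by role in pDCs, cDC1s and cDC2s (filled points, adjusted p at most 0.05; black lines, medians by role; red dashed line, median of all genes tested). In cDC1s most 60S and 40S genes lie below 0 while the median of all genes is at 0.17; in pDCs and cDC2s the members centre near 0.

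Values from other genes moved along with the cDC1 comparison. Ccr7, a chemokine receptor of mature DCs, was at 417 and 694 TPM in WT and 18.5 and 33.7 TPM in cKO cDC1s, and Top2a was at 36.1 and 57.4 against 108 and 126 TPM. The 8 NK cell markers summed to 48.2 and 61.5 TPM in WT and 101 and 114 TPM in cKO, and the 9 neutrophil markers to 1.88 and 17.4 against 23.1 and 43.0 TPM, with Ly6g at 0 in the WT and Elane at 0 in the cKO libraries. The 14 monocyte and macrophage markers summed to 480 and 482 against 613 and 631 TPM, although 9 of the 14 had changes below 0 (median -0.26). The 10 pDC markers summed to 308 and 365 against 536 and 546 TPM. The 8 B cell markers listed summed to 33.9 and 46.0 against 55.7 and 62.4 TPM. The 10 cDC1 markers, of which 3 were called lower, summed to 4618 and 4675 against 4188 and 4209 TPM, and 6 genes shared by DCs to 53436 and 58387 against 44139 and 46353 TPM. A sum can hide members that go the other way. Of the genes tested, 1 of 2 NK cell, 5 of 5 neutrophil, 7 of 9 pDC and 3 of 5 B cell markers had changes above 0. So did 5 of 10 cDC1 markers and 2 of 6 shared DC genes. The part of these genes in the members' changes was not tested.

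In cDC2s the members centred on 0. By the first rule 0 of 84 were called, against 7.15% of all genes. An unadjusted p under 0.05 was reached by 6 of the 84, against 3896 of 11411 genes. The changes ran from -0.57 to 0.40 with a median of 0.02, beside -0.03 over all genes. Of the 84, 47 were above 0, as were 5311 of 11411 genes. By the looser rule 4 members were higher, against 9.74% of all genes, and 0 were lower, against 10.2%. The NK cell markers summed to 23.5 to 42.0 TPM in WT and 58.0 to 67.1 TPM in cKO cDC2s, and the pDC markers to 336 to 453 against 470 to 599 TPM. The 10 cDC2 markers summed to 2072 to 2312 TPM in WT and 1689 to 1908 TPM in cKO cDC2s, without overlap. The 14 monocyte and macrophage markers summed to 1182 to 1400 against 1343 to 1873 TPM, with overlap. Of the genes tested, 1 of 2 NK cell, 5 of 9 pDC, 4 of 10 cDC2 and 11 of 14 monocyte and macrophage markers had changes above 0. Their part in the members' values was not tested.

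These 4 were Rps2, Rpl28, Rps19bp1 and Rpl8. Rps2 was at 1954, 1889 and 2135 TPM in WT and 2533, 2473 and 2585 TPM in cKO cDC2s (log2 fold change 0.35, SE 0.08, adjusted p 0.0146). Rpl28 (chr7:4792965-4794547), a large-subunit protein, was at 2000, 1866 and 1970 TPM in WT and 2633, 2315 and 2576 TPM in cKO (0.37, SE 0.08, adjusted p 0.015). Rps19bp1 was at 17.5, 20.8 and 18.7 TPM in WT and 23.6, 25.6 and 26.7 TPM in cKO (0.40, SE 0.09, adjusted p 0.0151). For all of these, as for Rpl8 at 1693, 1703 and 1883 against 2178, 2118 and 2176 TPM (0.30, SE 0.08, adjusted p 0.0266), the genotypes did not overlap. Without cKO cDC2 library 3 all 4 missed the threshold (adjusted p 0.0681 to 0.0987), as did Rpl28 without cKO cDC2 library 1 (0.0549) and Rpl8 without either cKO cDC1 library, WT cDC2 library 1, WT cDC2 library 2 or cKO cDC2 library 1 (0.0547 to 0.0813). With only the 2 groups compared, and without a filter on low values, Rps19bp1 alone passed, and after quantile normalization Rps2 (0.0552) and Rpl8 (0.156) missed. The next member, Rplp0, had a log2 fold change of 0.20 (adjusted p 0.0897).

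The pattern of Rps2, Rpl8 and Rps19bp1 being higher in cKO was thus measured in both cDC subsets, in separate libraries that share 1 fit. In pDCs these genes had log2 fold changes of 0.13 (adjusted p 0.276), 0.04 (0.712) and -0.11 (0.577).

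Whether the genotype effect differed between cDC1s and cDC2s was tested as an interaction. By the first rule 0 members were called, against 2.56% of all genes. An unadjusted p under 0.05 was reached by 7 of 84 members, against 3499 of 11411 genes. By the looser rule 2 passed, against 11.3% of all genes. Rpl7l1 was 0.51 (SE 0.14, adjusted p 0.0397) higher in its cDC1 change than in its cDC2 change, where it was at 64.9, 78.1 and 71.0 TPM in WT and 73.7, 73.4 and 68.5 TPM in cKO (0.01).

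The interaction of Rpl7l1 missed the threshold without any one cDC library other than WT cDC2 libraries 1 and 3. It also missed under every other scaling (adjusted p 0.0516 to 0.211), without the eBayes trend (0.0518) and with the replicate block (0.0863). The next among those described were Rpl28 (-0.45, adjusted p 0.055), Rplp0 (-0.38, 0.0717) and Rps28 (-0.55, 0.0859). Over the 84 members, 72 interaction values were below 0, against 3092 of 11411 genes, and the members' median was -0.14, beside 0.22 for all genes. Relative to all genes it was -0.36 as deposited and -0.10 after quantile normalization.

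**Figure D4:**
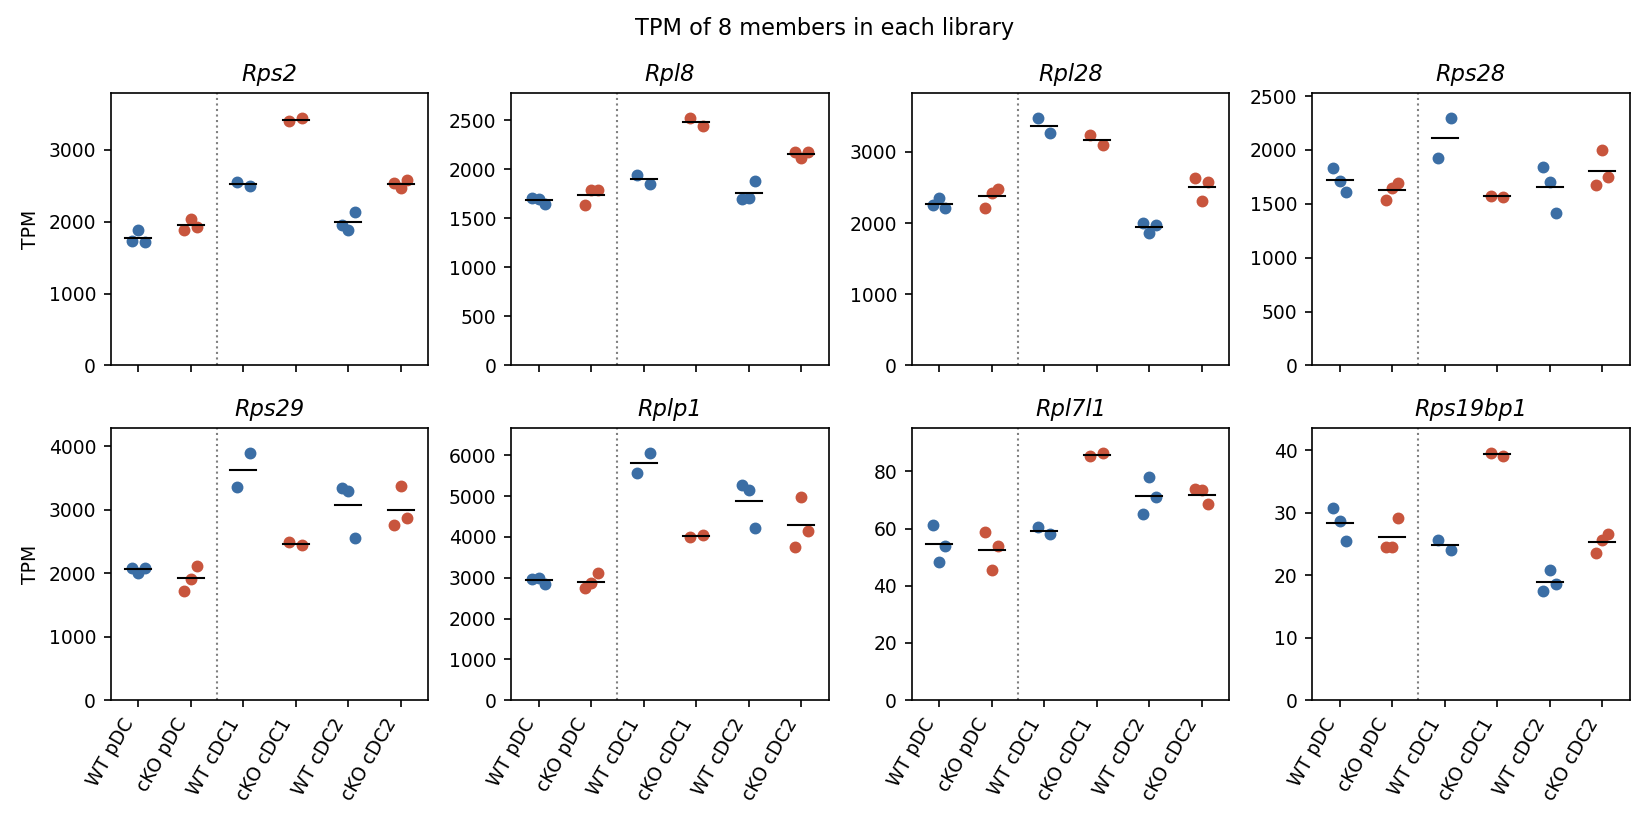
TPM of 8 members in each library (points; WT blue, cKO red; black lines, group means; every axis starts at 0; the dotted line separates the pDC and cDC tables). Rps2 and Rpl8 are higher in cKO in both cDC subsets, Rps28, Rps29 and Rplp1 are lower in cKO cDC1s, and Rpl28 stands highest in cDC1s of both genotypes.

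A last contrast set WT cDC1s against WT cDC2s, which asks how the subsets differ without Cre. By the first rule 3 members were higher in cDC1s, against 10.9% of all genes, and 0 were lower, against 20.8%. By the looser rule 8 were higher and 4 lower, against 16.4% and 32.3%. Over all genes the split was 1241 higher to 2371 lower with TPM and 1815 to 1718 with median-of-ratios scaling, which moved the median of all genes from -0.17 to 0.01. The members' median was -0.08 with TPM and turned to 0.12 with that scaling.

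Rpl28 differed most. It was at 3475 and 3265 TPM in WT cDC1s against 2000, 1866 and 1970 TPM in WT cDC2s, without overlap (log2 fold change 0.79, SE 0.09, adjusted p 6.94e-05), and its call held without each library in turn (adjusted p up to 0.00156). Rpl36al, a near copy of Rpl36a, was at 583 and 689 against 445, 479 and 404 TPM (0.52, SE 0.12, adjusted p 0.00397), while the value for Rpl36a itself was -0.17 (adjusted p 0.546). Rpl36al lost the call without WT cDC1 library 2 (adjusted p 0.0495), without WT cDC2 library 3 (0.45) and with the replicate block (0.47, below the size limit).

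Rpl14 (chr9:120571517-120574653) was at 1421 and 1524 against 1114, 988 and 1039 TPM, and passed the looser rule just under the size limit (0.49, SE 0.09, adjusted p 0.00121). Rps26, Rps19bp1, Rps2 and Rplp0 also passed as higher, at 0.44, 0.37, 0.35 and 0.24. Rps19, a protein needed to mature 18S rRNA, was at 1620 and 1698 TPM in WT cDC1s and 2350, 2355 and 2013 TPM in WT cDC2s (-0.43, adjusted p 0.0107). Rps24 (-0.36), Rps9 (-0.30) and Rpl7l1 (-0.26) were lower too, but under median-of-ratios scaling 0 members passed as lower and 14 as higher. The share of all genes passing the looser rule under that scaling is not given here.

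The genes that build and serve the ribosome were set beside the members. In cKO cDC1s 47 of 63 biogenesis genes passed the first rule as higher, against 15.8% of all genes, and 0 as lower, with a median of 0.71. Of the 84 members 2 were called there, and 0 of the 60S, 40S and stalk genes. Utp20 and Rrs1, which act in small-subunit and large-subunit assembly, changed by 1.47 (adjusted p 0.000134) and 1.26 (0.000157), Dkc1, the pseudouridine synthase of box H/ACA particles, by 1.23 (3.93e-05), and Ncl, encoding nucleolin, by 1.14 (0.000162). The biogenesis genes summed to 3369 and 3757 TPM in WT cDC1s and 5840 and 5921 TPM in cKO cDC1s, without overlap. The count was 31 under median-of-ratios scaling, where 9.35% of all genes were called higher. It was lower without cKO cDC1 library 1, cKO cDC1 library 2 or WT cDC1 library 1. In these fits 1 library was left in a group and fewer genes were called in total. The median relative to all genes was between 0.52 and 0.54 under all 5 scalings.

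In cDC2s 7 of 63 biogenesis genes were called higher, against 3.59% of all genes, with a median of 0.29. They included Rrp12 (0.70, adjusted p 0.00812), Rrs1 (0.62, 0.0046) and Utp20 (0.62, 0.00851). This count was 1 without WT cDC2 library 1, WT cDC2 library 2 or cKO cDC2 library 1, where 530, 507 and 448 genes were called in total. It was 0 without cKO cDC2 library 3 (316 in total) and 10 without WT cDC2 library 3 (907 in total). With the replicate block it was 0 (356 in total), where 816 genes were called in total as reported. It was also lower without any 1 cDC1 library, which leaves 1 library in a group. In pDCs limma called 0 of 63, against 1.05% of all genes, and the median was -0.01. An unadjusted p under 0.05 was reached by 7 of the 63, against 2352 of 11299 genes. The interaction between cDC1s and cDC2s was called for Ncl (0.89, adjusted p 0.00957) and Dkc1 (0.81, 0.00533).

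The mitochondrial ribosomal proteins, which serve the organelle's own ribosome, were called higher for 27 of 78 genes in cKO cDC1s (median 0.45), against 15.8% of all genes. Under median-of-ratios scaling 9 of 78 were called higher, near the 9.35% of all genes there. The count was lower without any 1 cDC1 library, where 1 library was left in a group and fewer genes were called in total. The 27 included Mrpl49 (1.00, adjusted p 0.00206) and Mrpl28 (0.91, 0.000493). In cDC2s and pDCs limma called 0 of 78, with 21 and 6 at an unadjusted p under 0.05. Over all genes 3896 of 11411 in cDC2s and 2352 of 11299 in pDCs reached this. Of 38 translation factors, 13 were called higher in cKO cDC1s, against 15.8% of all genes, among them Eif4g1 (0.85, adjusted p 0.00168), a scaffold of the cap-binding complex, and Gspt1 (0.84, 0.000153), a release factor. This number was 3 under median-of-ratios scaling, a share no higher than the 9.35% of all genes. It was below 13 without cKO cDC1 library 1, WT cDC1 library 1 or cKO cDC1 library 2. In these fits 1 library was left in a group and fewer genes were called in total. In cDC2s and pDCs limma called 0 of 38, with 18 and 1 at an unadjusted p under 0.05, against the same 3896 of 11411 and 2352 of 11299 genes.

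The translation factor called lower was Eef1b2 (-0.60, adjusted p 0.00101), an exchange factor for elongation factor 1, and without cKO cDC1 library 1 it was not called. Its change differed between cDC1s and cDC2s by -0.70 (adjusted p 0.00863), and it was higher in WT cDC1s than in WT cDC2s by 1.51 (adjusted p 3.02e-07). Fau, which encodes a ribosomal protein fused to a ubiquitin-like protein, had a log2 fold change of -0.33 (adjusted p 0.0413) in cDC1s. For Rack1, a scaffold on the small subunit, it was 0.13 (0.328) in cDC1s and 0.26 (0.0478) in cDC2s.

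**Figure D5:**
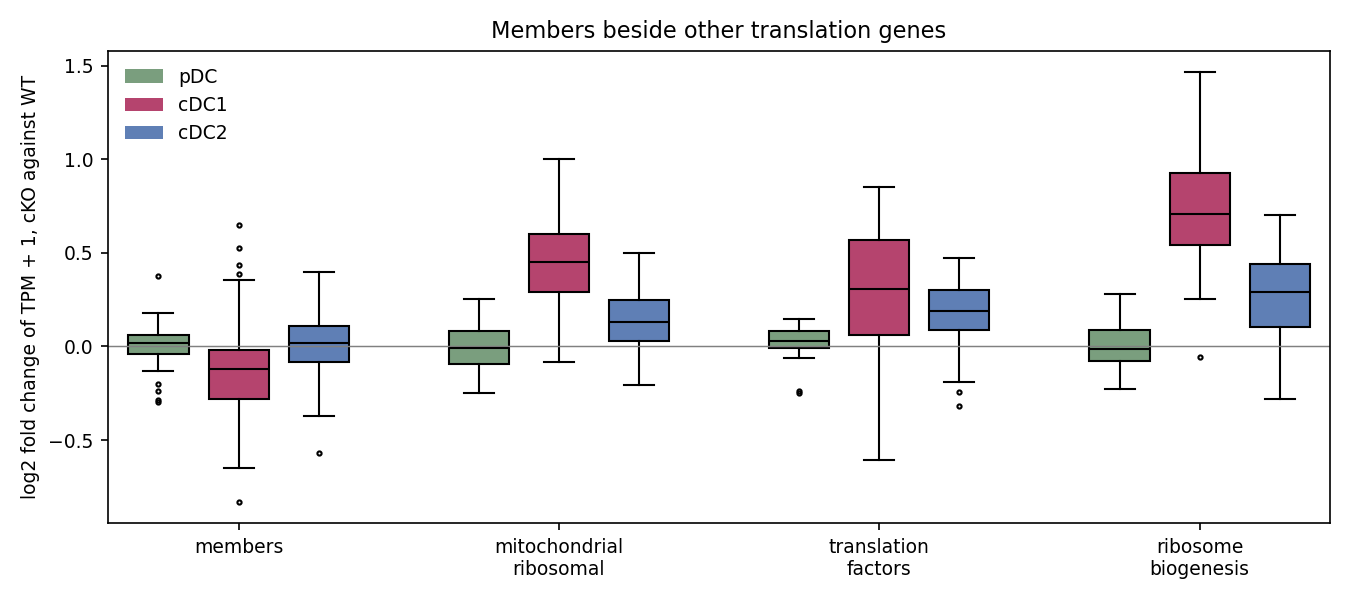
Log2 fold change of TPM + 1, cKO against WT, of the tested members, 78 mitochondrial ribosomal protein genes, 38 translation factors and 63 ribosome biogenesis genes (boxes, quartiles with the median as a line; whiskers reach 1.5 times the box; points beyond). In cDC1s the median is -0.12 for the members and 0.71 for the biogenesis genes.

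The regulators list held 24 tested genes of the mTORC1 and MYC pathways. In cKO cDC1s 1 of the 24 was called higher, against 15.8% of all genes, and 2 lower, against 6.56%. Myc was at 16.3 and 23.0 TPM in WT and 80.9 and 90.4 TPM in cKO cDC1s (log2 fold change 2.09, SE 0.25, adjusted p 0.000242). Mxd1, a MAX partner that represses MYC targets, was at 77.7 and 125 against 12.9 and 14.6 TPM (-2.76, adjusted p 4.01e-05), and Mxd4 fell by 0.93 on the log2 scale (adjusted p 0.00127). In cDC2s 1 of 24 was called, against 7.15% of all genes, and this was Mxd1 (-1.42, adjusted p 0.000981). Myc was at 22.1 to 38.2 TPM in WT and 33.0 to 45.3 TPM in cKO cDC2s, with overlap. In pDCs limma called 0 of 24, with 4 at an unadjusted p under 0.05, against 2352 of 11299 genes. Mycl, the family member typical of DCs, was at 311 and 361 TPM in WT cDC1s and 69.7 to 70.6 TPM in WT cDC2s (2.24, adjusted p 3.39e-08), and its change in cKO cDC1s was -0.38 (adjusted p 0.0122).

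The non-members whose level followed the summed members most closely over the 10 cDC libraries were Atp6v1e1 (r = 0.941), Atp5l (0.922), Emc2 (0.909), Mdfic (0.893) and Tmsb15b1 (0.889). These are Pearson's r of log2 levels, chosen as the highest among all genes. The points share 1 normalisation to a fixed total. Across members, the cDC1 change had r of 0.11 with transcript GC content and 0.20 with log2 transcript length (n = 83).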

How the data were processed

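RNA was sequenced from 16 libraries of sorted splenic DCs in 6 groups. The authors filtered reads with SOAPnuke, aligned them to transcripts with Bowtie2 2.2.5 and quantified genes with RSEM 1.2.12; the release of the transcript reference is not given in the sources used here, and HISAT2 2.0.4 with mm10 was used for alignment files. The deposited values are TPM, with FPKM beside them, in 1 table for pDCs and 1 for cDCs, each normalised separately. The authors tested counts with DESeq2; counts were not used here, so TPM was tested with limma. All 32 value columns matched a library by name. RSEM divides reads that fit several transcripts, so the levels of near-identical genes depend on its estimate.

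Genes with a mean of at least 1 TPM were fitted as log2(TPM + 1) with limma 3.58.1 in R 4.3.3 (lmFit, eBayes with trend, two-sided), the 6 pDC libraries alone and the 10 cDC libraries as 4 group means. The pseudocount understates changes of low genes. Tests were Benjamini-Hochberg adjusted over all genes, with the study's limits (adjusted p at most 0.01, log2 change at least 0.5) and a looser one (0.05). pDCs were not tested against cDCs. The labels do not say that libraries of a group came from separate experiments, so p-values measure the spread between these pooled libraries. Steps in the FPKM values put depth at 17.8 to 20.15 M reads per library, an estimate. Replicates had r of 0.991 to 0.997 across genes, and 0 pairs of libraries were identical.

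Same-numbered pDC libraries deviated together (r of 0.31, 0.392 and 0.206 over genes), so their numbers were taken to pair them, and the block changed no first-rule call of a member there. Alternatives covered pseudocounts, filters, scalings, FPKM, the trend, the block, left-out libraries and summed copies; the last and a crossed pairing were chosen after seeing the data. Genes were matched to names, coordinates and start sites with RefSeq and to coding sequences with GENCODE M21 and BLAST+ 2.17.0+. Fits were tested on simulated data. Genes named are the 10 most abundant members per table, the called or 5 most significant per contrast, members with a known role or paralog, low or variable members, and up to 5 called genes per pathway list. Members and lists were chosen with earlier results of these data known. Results for a few genes that these rules select are not reported here.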

Additional observations from a re-analysis of the deposited data

Results flagged for a closer look

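Each gene here drew attention because its change in cKO differed between cDC1s and cDC2s in limma's interaction test. Among the members described this was Rpl7l1 (0.51, adjusted p 0.0397), given as the log2 fold change in cDC1s minus that in cDC2s. Among the other genes described they were Myc (1.64, adjusted p 0.0137), Ncl (0.89, adjusted p 0.00957), Dkc1 (0.81, adjusted p 0.00533) and Eef1b2 (-0.70, adjusted p 0.00863). All 5 come from 2 libraries a genotype in cDC1s, and the cause was not tested. Rpl7l1 missed the looser threshold under every other scaling.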

How the results depend on the processing

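With 2 or 3 libraries a group, calls of single members often turned on 1 library, and near-identical copies limit what a level of one gene means. Rps27 in pDCs turned from 0.37 to -0.0226 (adjusted p 0.879) when near-identical copies were summed. Members called in cDC1s numbered 2 as reported, 1 with a pseudocount of 5, 1 (lower) under median-of-ratios scaling, 0 after quantile normalization, 1 when scaled to the total of non-members, 4 (2 higher, 2 lower) with only the 2 groups compared, 0 with the paralog-like and name-only genes left out, and 10 (4 higher, 6 lower) at an adjusted p of 0.05. Over all genes, cDC1 calls numbered 2555 as reported, 2134 under median-of-ratios scaling, 2074 after quantile normalization and 2746 with only 2 groups compared. The cDC1 median of members moved to -0.29 and the interaction median to -0.37 under median-of-ratios scaling, and the pDC median to -0.035 after quantile normalization. At an adjusted p of 0.05 the counts were 1 in pDCs (2 with the replicate block), 4 in cDC2s, 2 for the interaction and 12 for WT cDC1s against WT cDC2s. By the first rule the last count, 3 as reported, was 7 under median-of-ratios scaling (median 0.12), 5 after quantile normalization and 1 with only the 2 groups compared. Over all genes the calls in these 4 fits numbered 3612, 3533, 3419 and 2648.

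With the replicate number as a block, 1 member was called in cDC1s, 2 between the WT subsets and 0 in each other contrast. Over all genes these fits called 1890 in cDC1s, 3324 between the WT subsets, 356 in cDC2s, 95 for the interaction and 335 in pDCs. As reported, these calls numbered 2555, 3612, 816, 292 and 119. Biogenesis genes called in cDC2s numbered 0 with the block against 7. The cDC numbers did not pair (r of -0.233 in cDC1s, and -0.249, 0.253 and -0.165 in cDC2s). A crossed pairing in cDC1s, tried after seeing the data, gave 3 member calls, with 2091 over all genes. No other first-rule count of members changed with the block.

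Without any 1 pDC library 0 members were called in pDCs, where 12 to 97 genes were called in total. Leaving out any 1 cDC2 library gave 0 in cDC2s (316 to 907 in total) and 0 for the interaction (116 to 282). It gave up to 3 in cDC1s (2126 to 2888 in total) and up to 4 between the WT subsets (3260 to 3575). The cDC1 count fell without any 1 cDC1 library, where 1 library was left in a group and fewer genes were called in total. The medians ran from -0.21 to -0.04 in cDC1s, from -0.22 to -0.05 for the interaction, from -0.07 to 0.08 in cDC2s, from -0.005 to 0.05 in pDCs and from -0.14 to 0.01 between the WT subsets. The share was 13.6% to 13.8% in WT pDCs, 13.7% to 14.3% in cKO pDCs, 16.9% to 18.7% in WT cDC1s, 15.6% to 16.4% in cKO cDC1s, 17.5% to 19.0% in WT cDC2s and 17.2% to 18.9% in cKO cDC2s.

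Without the 10 most abundant non-members in the total, the mean share was 14.9% and 15.0% in WT and cKO pDCs, 20.92% and 18.01% in cDC1s, and 20.3% and 20.5% in cDC2s. With near-identical copies summed it was 14.1% in WT pDCs. Of all the alternative values computed, 749 counted as unchanged, 179 lost the threshold and 66 moved further. The last include the medians in pDCs and between the WT subsets that changed sign as given above. Unchanged meant that a gene kept its direction and its side of the threshold, or a median or share moved by less than the spread between replicates. For a count it meant staying within a set ratio of the reported count. Leaving out a library of another group can move a gene's p-value but not its log2 fold change, so 749 is no measure of robustness. Among single genes past a threshold, the sign changed for Rps27 in pDCs.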
